A study of Homo sapiens with 76 samples.

Results

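The mitochondrial ribosomal RNAs MT-RNR1 and MT-RNR2 and the mitochondrial transfer RNA genes MT-TP, MT-TS2, MT-TF, MT-TV and MT-TL1 were examined in 76 single HEK293 cells. These 7 genes were taken by name from a table of 17513 gene rows, and all 7 had a row. They include genes picked because they varied strongly between cells in the same table, so their spread is given as a description and supports nothing. HEK293 is an established human embryonic kidney line, grown here in DMEM with glutamine and fetal calf serum. Cells were captured and lysed on a Fluidigm C1 chip with spike-in RNA, cDNA was primed with oligo-dT, and 5′ ends were counted with unique molecular identifiers (UMIs), tags that let copies of a molecule be counted once. The cells form a single untreated group of 1 run without a comparison group, and no replicate cultures are named. Every SD below is therefore a spread over these 76 cells, and correlations over cells carry no p-value.

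A cell held a median of 20966 endogenous UMIs (7305 to 43392) and 2198.5 spike-in UMIs (1390 to 3132). No 2 cells held identical values. Of the 6 markers set for the line, 5 had a row among those analysed, and PAX2 had none. VIM was seen in 70 cells, NEFM in 49, KRT18 in 45, NEFL in 26 and KRT8 in 19. The blood, fibroblast and muscle, and liver markers, of which 2 of 3 had a row in each set, gave 6, 15 and 1 UMIs over all cells.

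The human mitochondrial genome is a small circle that is transcribed on both strands into long precursors, in which tRNAs lie between the rRNAs and most mRNAs. Cutting out the tRNAs releases their neighbours: RNase P cuts at the 5′ end of a tRNA and ELAC2 at its 3′ end. MT-RNR1 is the RNA of the small subunit and MT-RNR2 that of the large subunit of the mitochondrial ribosome, which makes only the proteins encoded by this genome. MT-TP, MT-TS2, MT-TF, MT-TV and MT-TL1 encode the tRNAs for proline, serine, phenylalanine, valine and leucine. In human mitochondria the valine tRNA is also a structural RNA of the large ribosomal subunit.

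In GENCODE 29 on GRCh38, 5 of the 7 genes stand in an unbroken row on the plus strand: MT-TF at chrM:577-647, MT-RNR1 at chrM:648-1601, MT-TV at chrM:1602-1670, MT-RNR2 at chrM:1671-3229 and MT-TL1 at chrM:3230-3304. MT-TS2 lies far downstream at chrM:12207-12265 on the same strand, between MT-TH and MT-TL2. MT-TP lies at chrM:15956-16023 on the minus strand, where 8 of the 22 mitochondrial tRNA genes lie. The submitters' processing notes name hg19 and GRCh37, and the deposited table holds no coordinates, so these positions describe the genes and not the reads. The tRNA sequences are shown because cDNA was primed with oligo-dT, which pairs with runs of A, and these genes have only short ones. They are GENCODE 29 transcripts, written 5′ to 3′ as DNA, with the anticodon in capitals.
MT-TF: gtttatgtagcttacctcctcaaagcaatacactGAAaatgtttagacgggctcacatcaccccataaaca
MT-TV: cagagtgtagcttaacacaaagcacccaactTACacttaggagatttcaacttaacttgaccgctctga
MT-TL1: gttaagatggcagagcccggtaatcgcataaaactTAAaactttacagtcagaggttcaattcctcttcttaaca
MT-TS2: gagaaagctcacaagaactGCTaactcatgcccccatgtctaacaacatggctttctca
MT-TP: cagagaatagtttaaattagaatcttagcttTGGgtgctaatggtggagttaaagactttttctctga

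The longest run of A was 4 bases in MT-TF and MT-TL1 and 3 bases in MT-TV, MT-TS2 and MT-TP. The motif AAAA, searched on the sense strand only, was held by 2 of these 5 tRNAs and by 12 of all 22 (54.5%). MT-TP and MT-TS2, the members with the most tRNA UMIs, do not hold it. The rRNAs have longer runs inside the gene. The stretch around the longest run of each is shown with that run in capitals, at chrM:968-1023 for MT-RNR1 and chrM:2432-2488 for MT-RNR2, both on the plus strand of GRCh38.
MT-RNR1: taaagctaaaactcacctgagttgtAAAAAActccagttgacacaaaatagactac
MT-RNR2: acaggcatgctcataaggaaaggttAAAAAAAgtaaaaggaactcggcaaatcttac

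These runs hold 6 bases in MT-RNR1 and 7 in MT-RNR2. Whether priming at such runs, at an added A tail or in a longer precursor gave the counts was not tested. A mature rRNA or tRNA and a precursor that still holds it cannot be told apart in a table of counts per gene. The sources used here do not say whether counting used strand, so reads of MT-TP and of any RNA from the opposite strand cannot be told apart either.

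The rRNAs were the most abundant members. MT-RNR2 was seen in every cell with 44, 242.5 and 788 UMIs in the lowest, median and highest cell (mean 279 ± 163, SD, n = 76 cells). MT-RNR1 was also seen in every cell, with 16, 186.5 and 760 UMIs (mean 209 ± 147). Their ranges overlapped widely, and within a cell MT-RNR2 had more UMIs than MT-RNR1 in 65 of 76 cells and fewer in 11. Per kb of annotated length the means had the other order, 179 UMIs for MT-RNR2 and 219 for MT-RNR1. A 5′ UMI counts a molecule once whatever its length. Summed, the 2 rRNAs took 2.15% ± 0.894 of a cell's endogenous UMIs, from 0.605% to 4.73%.

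The proline tRNA row followed. MT-TP was seen in 75 cells with 0, 33.5 and 185 UMIs in the lowest, median and highest cell (mean 44.03 ± 45.4). It was spread broadly rather than around its median: 21 cells had at most 5 UMIs and 30 cells had at least 50. MT-TS2, for serine, had 0, 10 and 107 UMIs (mean 19.1 ± 22.6, 74 cells), and MT-TF, for phenylalanine, 0, 7.5 and 64 UMIs (mean 13.2 ± 14.5, 74 cells). Per kb, MT-TP averaged 647 UMIs, MT-TS2 324 and MT-TF 186. Within a cell MT-TP exceeded MT-TS2 in 54 cells and lay below it in 19, and MT-TS2 exceeded MT-TF in 51 cells and lay below it in 19. The order of the means thus did not hold in every cell.

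MT-TV and MT-TL1, which flank MT-RNR2, were sparse. MT-TL1 gave 83 UMIs in all, at most 5 in a cell, and was seen in 36 of 76 cells (47.4%, exact Clopper-Pearson 95% interval 35.8% to 59.2%). MT-TV gave 64 UMIs, also at most 5 in a cell, in 33 cells (43.4%, 32.1% to 55.3%). MT-TL1 exceeded MT-TV in 28 cells, lay below it in 17 and equalled it in 31. At counts this sparse no order of the pair is read, and a difference was not tested. Both lie directly against MT-RNR2 in the annotation, whose mean was 279 UMIs.

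As shares of a cell's endogenous UMIs, MT-RNR2 averaged 1.26% ± 0.567 (0.410% to 3.75%) and MT-RNR1 0.896% ± 0.431 (0.121% to 2.09%). MT-TP averaged 0.182% ± 0.174 and reached 0.824%, MT-TS2 0.0816% ± 0.0868 with a highest value of 0.478%, and MT-TF 0.0564% ± 0.0522 with a highest value of 0.271%. For each of these tRNAs the SD was close to the mean or above it, which was not so for the rRNAs. The highest UMI counts of both rRNAs fell in 1 cell, with the title number 50, and those of MT-TP and MT-TF in another, cell 30. Cell 33 had the highest count of MT-TS2 and also held 5 UMIs each of MT-TV and MT-TL1. Cell 50 held 42334 endogenous UMIs, cell 30 held 31669 and cell 33 held 41539, all above the median. By share, the highest values of the rRNAs fell in other cells, cell 91 for MT-RNR1 (2.09%) and cell 16 for MT-RNR2 (3.75%).

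**Figure D1:**
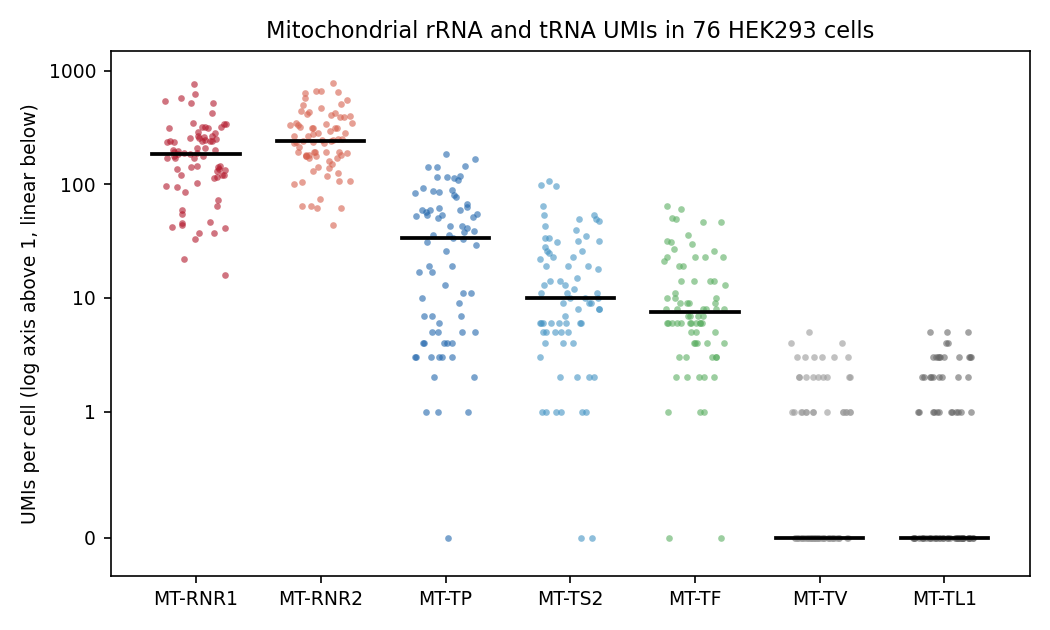
UMIs per cell of the 7 genes, with a point for each of the 76 HEK293 cells, a bar at the median and an axis that is logarithmic above 1 and linear below it. MT-RNR1 and MT-RNR2 lie between 16 and 788 UMIs, MT-TP, MT-TS2 and MT-TF reach 0 and spread over a wide range, and MT-TV and MT-TL1 have a median of 0.

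All 22 mitochondrial tRNA genes had at least 1 UMI, and the 5 described here held 85.4% of the 6969 tRNA UMIs. The 17 other tRNA genes gave 1017 UMIs, and 4 of them exceeded MT-TL1: MT-TE for glutamate (224 UMIs in 58 cells), MT-TC for cysteine (192 in 50 cells), MT-TM for methionine (175 in 54 cells) and MT-TY for tyrosine (158 in 43 cells). MT-TE, MT-TC and MT-TY lie on the minus strand, as does MT-TP, and MT-TM lies on the plus strand. Intermediate numbers fell on MT-TR for arginine (64 UMIs), MT-TH (44) and MT-TL2 (24), the neighbours of MT-TS2 being MT-TH before it and MT-TL2 after it, against 1455 UMIs of MT-TS2 itself. MT-TT, the gene between MT-CYB and MT-TP in the annotation, gave 24 UMIs, against 3346 for MT-TP on the other strand. The fewest UMIs fell on MT-TW (1 UMI) and on MT-TQ, MT-TA and MT-TN (2 each).

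Copies of the mitochondrial genome in the nuclear genome can share reads with these genes. The 10 rows of nuclear copies of MT-RNR2 that were analysed here (MTRNR2L genes) gave 73 UMIs in all, led by MTRNR2L8 with 20, against 21211 for MT-RNR2. MTRNR2L4 had 15 UMIs in 2 cells. How the authors treated reads that fit several places is not given in the sources used here, so the split between MT-RNR2 and these copies is uncertain.

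The spread between cells was large, and these values were among those that chose the members. The coefficient of variation (CV) beyond counting noise, scaled to each cell's endogenous UMIs, was 97.3% for MT-TS2, 85.9% for MT-TF and 80.02% for MT-TP. It was 45.6% for MT-RNR1 and 39.9% for MT-RNR2, while the 13 mitochondrial mRNAs lay between 35.2% and 48.6%. MT-TV (74.8%) and MT-TL1 (71.3%) rest on few UMIs. The median excess CV was also taken over genes outside the mitochondrial genome within 2-fold of a member's mean UMIs. Only genes that averaged at least 1 UMI were used. It was 19.7% for MT-TP (105 genes), 26.2% for MT-TS2 (217 genes), 30.1% for MT-TF (336 genes), 66.1% for MT-TV and 62.3% for MT-TL1. For the rRNAs that median was 16.1% for MT-RNR1 (20 genes) and 16.3% for MT-RNR2 (7 genes). The genes set beside MT-TV (mean 0.842) were thus all more abundant than it. For MT-TL1 (mean 1.09) most of the range below its mean was cut. The excess CV of the spike-ins, added in equal amount to each chamber, was scaled to each cell's spike-in UMIs instead. The 17 that averaged 10 UMIs or more reached at most 22.5%, and the 36 that averaged at least 1 UMI reached 99.98%. The Pearson dispersion, observed over Poisson variance, lay above the highest of these 36 spike-ins (2.20) for 5 members. It was 49.7 for MT-RNR2, 43.4 for MT-RNR1, 32.1 for MT-TP, 19.7 for MT-TS2 and 10.6 for MT-TF. At a given CV this measure grows with mean UMIs. Its order here is that of abundance and does not rank the members by CV. The nearest member above that limit was MT-TF, and below it were MT-TL1 (1.56) and MT-TV (1.44). Of all 2810 genes with a mean of at least 1 UMI, 21.6% lay above it. As the members were chosen on this measure, nothing is read from the count.

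**Figure D2:**
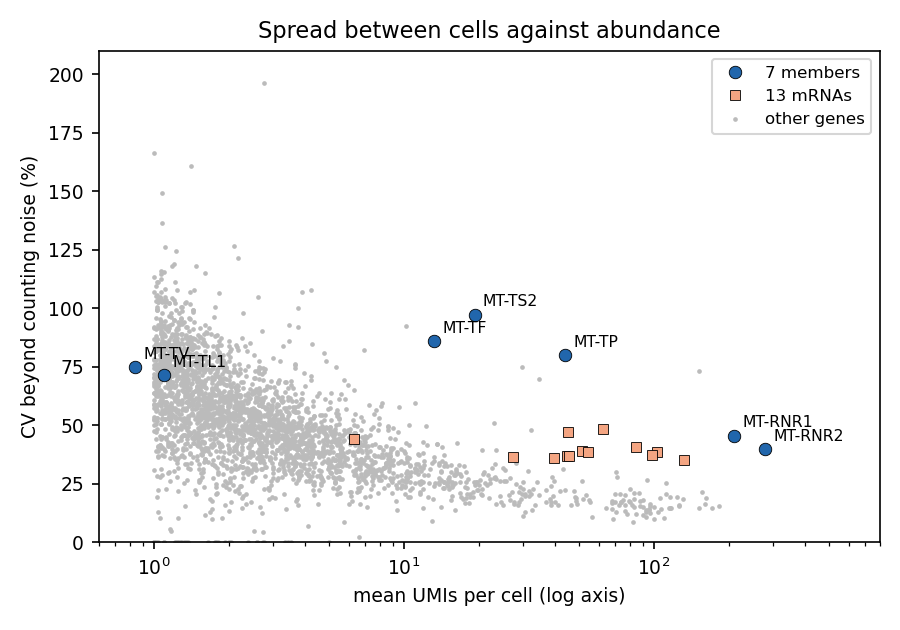
CV between cells beyond counting noise (percent) against mean UMIs per cell (log axis). Circles are the 7 genes and squares the 13 mitochondrial mRNAs. Dots are genes outside the mitochondrial genome with a mean of at least 1 UMI. MT-TS2, MT-TF and MT-TP lie at 80.02% to 97.3%, above the mRNAs at 35.2% to 48.6%. MT-TL1 lies among genes of like abundance, and MT-TV (mean 0.842 UMIs) is less abundant than every gene drawn as a dot.

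The members followed the mitochondrial mRNAs to unequal degrees. Shares of a cell's endogenous UMIs were compared over the 76 cells, which come from 1 run and whose counts share a cell's depth and total. The summed share of the 7 genes (2.48% ± 1.01) had a Spearman rho of 0.589 with the summed share of the 13 mRNAs (3.58% ± 1.54), and a Pearson r of 0.576, or 0.536 without the 2 cells farthest from the median mRNA share. MT-TP was closest to the mRNAs (rho 0.726, r 0.681, and r 0.679 without 2 cells), followed by MT-RNR1 (rho 0.632, r 0.559, and r 0.551). MT-TF (rho 0.353), MT-TS2 (0.350) and MT-RNR2 (0.313) were weaker, and MT-TV (0.199) and MT-TL1 (0.154) weaker still, at counts too sparse to read. The order of MT-TF, MT-TS2 and MT-RNR2 depended on the measure: with a denominator free of mitochondrial genes MT-RNR2 had 0.380, MT-TF 0.374 and MT-TS2 0.370, and the Pearson r of log2 shares was 0.404 for MT-RNR2, 0.363 for MT-TF and 0.365 for MT-TS2. With spike-in scaling MT-RNR2 had 0.596, MT-TF 0.579 and MT-TS2 0.601. Among the 6 members that averaged 1 UMI or more per cell, 5 had a rho of at least 0.3 with the summed mRNAs and 0 had one of at most -0.3, where 3.79% and 6.33% of 2797 genes did. Without the 5 cells of fewest UMIs the value of MT-RNR2 was 0.261, so MT-TP, MT-RNR1, MT-TS2 and MT-TF remained at 0.3 or more.

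**Figure D3:**
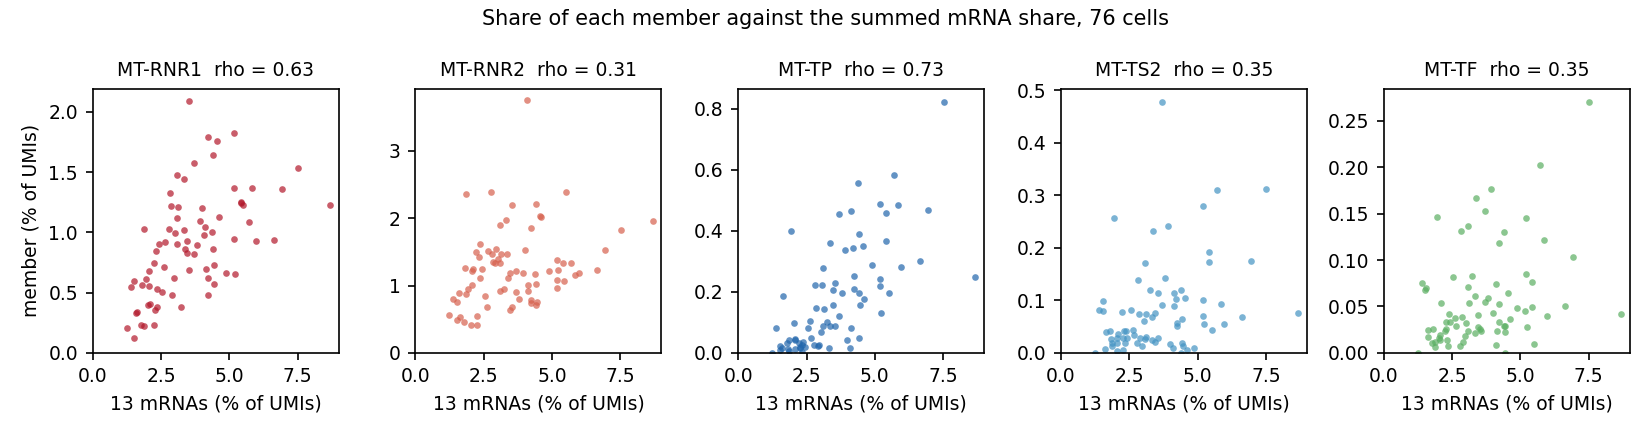
Share of a cell's endogenous UMIs (percent) for MT-RNR1, MT-RNR2, MT-TP, MT-TS2 and MT-TF against the summed share of the 13 mitochondrial mRNAs (percent), with a point for each of the 76 cells. MT-TP (rho 0.726) and MT-RNR1 (0.632) rise with the mRNAs most closely, and MT-TF (0.353), MT-TS2 (0.350) and MT-RNR2 (0.313) do so less.

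Single mRNAs again placed MT-TP and MT-RNR1 first. MT-TP had a rho of at least 0.3 with all 13 mRNAs, from 0.432 with MT-ND3 to 0.781 with MT-CO3, a subunit gene of cytochrome oxidase. MT-RNR1 also reached 0.3 with all 13, from 0.300041 with MT-ND3 to 0.762 with MT-CO1, another subunit gene of that enzyme. MT-RNR2 did so with 5, and its highest value was again with MT-CO1 (0.439). MT-TS2 did so with 7, MT-TF with 6, MT-TV with 1 and MT-TL1 with 0. MT-ND3 and MT-ND6 had the fewest UMIs among the mRNAs, with means of 27.3 and 6.29. MT-ND6 nevertheless had a rho of 0.557 with MT-RNR1 and 0.402 with MT-RNR2, where MT-ND3 had 0.300041 and 0.112. Between the mRNAs themselves all 78 pairs reached 0.3, with a median rho of 0.747.

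Among the members, MT-TP, MT-TS2 and MT-TF went together, MT-RNR1 went with them and with MT-RNR2, and the rho of MT-RNR2 with those tRNAs was near 0. MT-TS2 and MT-TF had the highest rho of the 21 pairs (0.789), although MT-TF stands at the start of the rRNA row and MT-TS2 far downstream. MT-TP had a rho of 0.676 with MT-TF and 0.636 with MT-TS2, although it lies on the other strand. MT-RNR1 and MT-RNR2 had a rho of 0.679. MT-RNR1 had a rho of 0.562 with MT-TP, 0.427 with MT-TS2 and 0.409 with MT-TF. MT-RNR2 had 0.0404, 0.0461 and 0.000205 with the same tRNAs, at a mean of 279 UMIs per cell. Scaled to spike-in UMIs, which leaves a cell's RNA content in both measures, those 3 values of MT-RNR2 were 0.345, 0.359 and 0.267, still the lowest among pairs of these 5 genes. Among directly adjoining members, only MT-TF and MT-RNR1 had enough UMIs to read (rho 0.409). This value was below the 0.679 of MT-RNR1 and MT-RNR2, which have MT-TV alone between them. The other adjoining pairs hold MT-TV or MT-TL1, at counts too sparse to read. MT-TV lies between MT-RNR1 (0.319) and MT-RNR2 (0.248), and MT-TL1 directly follows MT-RNR2 (-0.0338). MT-TL1 had 0.397 with MT-TP, 0.384 with MT-TS2 and 0.374 with MT-TF, at the same sparse counts.

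**Figure D4:**
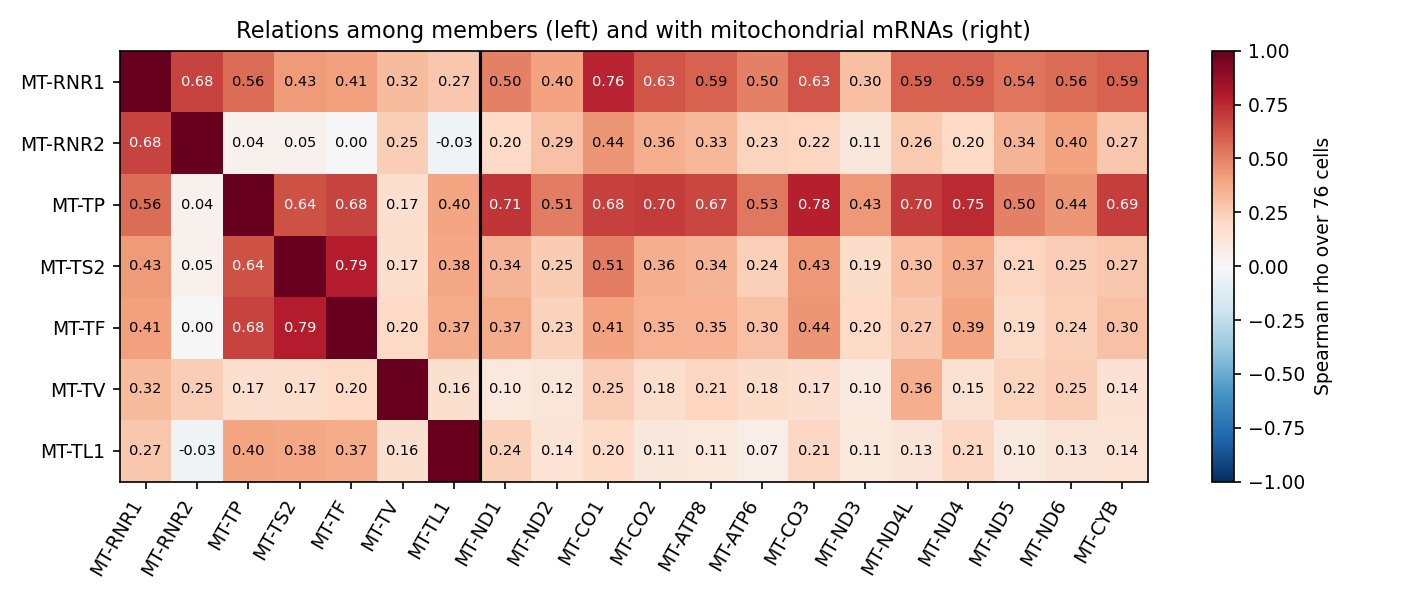
Spearman rho over 76 cells between shares of endogenous UMIs for the 7 genes (rows) with each other and with the 13 mitochondrial mRNAs (columns, to the right of the line). MT-TP, MT-TS2 and MT-TF form a block (0.636 to 0.789), MT-RNR2 is near 0 with those tRNAs, and MT-TP and MT-RNR1 have the highest values with the mRNAs.

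The 17 other tRNAs, summed, went with MT-TP, MT-TS2 and MT-TF. Their summed share had a rho of 0.863 with the summed share of those 3 tRNAs and 0.245 with that of the rRNAs. MT-TE, which lies on the minus strand, had 0.791 with MT-TP, 0.671 with MT-TF and 0.652 with MT-TS2, against -0.0343 with MT-RNR2. MT-TY (0.737), MT-TC (0.658) and MT-TM (0.599) were likewise related to MT-TP, and their values with MT-RNR2 were 0.0348, 0.107 and 0.0457.

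The balance of the rRNAs differed between cells and went with the tRNAs. MT-RNR2 made up a median of 56.9% of the rRNA UMIs of a cell, with an SD of 9.32 percentage points. It ranged from 43% in cell 48 (178 of 414 UMIs, exact 95% interval 38.2% to 47.9%) to 80% in cell 36 (64 of 80 UMIs, 69.6% to 88.1%), numbers being those of the cell titles. Both cells were picked as the lowest and highest of all cells, so nothing is read from their intervals lying apart. The variance over all cells, which does not rest on that choice, was 13.9 times the binomial variance. The share of MT-RNR2 was lower in cells where the summed share of MT-TP, MT-TS2 and MT-TF was higher (rho -0.676, r -0.552, and r -0.611 without 2 cells). It was also lower with a higher mRNA share (rho -0.484) and with more endogenous UMIs in the cell (rho -0.386). With cells thinned to 10940 UMIs each, which left 71 cells, the rho with the tRNAs was -0.666. The intervals cover counting error only.

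**Figure D5:**
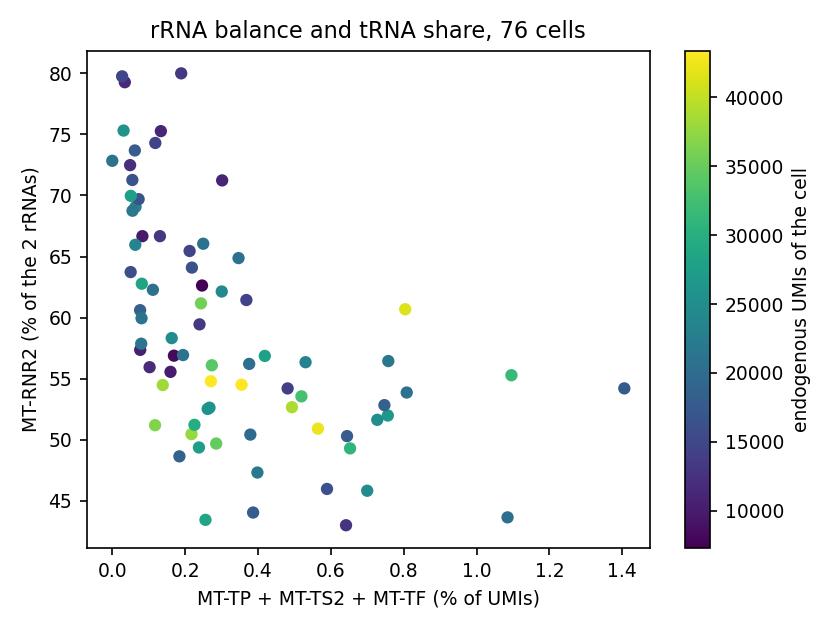
MT-RNR2 as percent of the UMIs of the 2 rRNAs against the summed share of MT-TP, MT-TS2 and MT-TF (percent of endogenous UMIs), with a point for each of the 76 cells coloured by endogenous UMIs. The MT-RNR2 share runs from 80% to 43% and is lower where the tRNA share is higher (rho -0.676); the 3 cells of lowest tRNA share have 72.8%, 79.8% and 75.3%.

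Against the mRNAs, the 2 rRNAs held 37.9% ± 9.57 of the rRNA and mRNA UMIs of a cell, from 22.2% in cell 65 (102 of 460 UMIs, exact 95% interval 18.5% to 26.3%) to 64.4% in cell 35 (561 of 871 UMIs, 61.1% to 67.6%). The rRNAs outnumbered the mRNAs in 7 cells, and the mRNAs outnumbered the rRNAs in 69. The 3 abundant tRNAs held 7.58% ± 5.34 of the tRNA and mRNA UMIs of a cell, from 0 to 29.3%, and 12.6% ± 8.44 of the tRNA and rRNA UMIs. The variance over cells was 50.96 times the binomial variance for the rRNAs against the mRNAs, 32.01 times for the tRNAs against the mRNAs and 38.3 times for the tRNAs against the rRNAs. Cell 77 had 0 UMIs of the 3 abundant tRNAs, 44 of MT-RNR1 and 118 of MT-RNR2 beside 262 mRNA UMIs, at 21107 endogenous UMIs. The upper exact bound for its 3 tRNAs was 1.40% of tRNA and mRNA UMIs. Cell 33 had 166, 107 and 61 UMIs of MT-TP, MT-TS2 and MT-TF, 254 of MT-RNR1 and 392 of MT-RNR2 beside 804 mRNA UMIs.

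The relation of these shares to depth and to the order of cell titles was weak. The summed share of the 7 genes had a rho of 0.207 with endogenous UMIs, 0.128 with spike-in UMIs and 0.0815 with the number in the cell title. The highest value for a single member was 0.294, of MT-TP with endogenous UMIs. The part of depth in the relations above, beyond the thinned values given, was not tested.

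Nuclear genes of the same pathway were set beside the members in the same way. Counts are of genes with a mean of at least 1 UMI whose share had a rho of at least 0.3, or at most -0.3, with the summed share of the 7 genes. The 2 rRNAs held 37112 of the 43064 UMIs in that sum, so these counts say little about the tRNAs. Over all 2804 genes tested 2.6% and 2.71% did so, and the median rho was -0.00122. Of 76 proteins of the mitochondrial ribosome, which bind these rRNAs, 0 lay above and 1 (MRPS11, -0.306) below, with a median of -0.0415. The most abundant were MRPS21 (15.0 ± 7.44 UMIs, rho -0.239) and MRPL20 (14.3 ± 7.85, rho -0.146). Of 13 genes for mitochondrial transcription and RNA processing, 0 lay above and 0 below, with a median of -0.0387. They include SLIRP, which stabilizes mitochondrial mRNAs (16.8 ± 7.87 UMIs, rho -0.111), the RNase P subunits TRMT10C (6.78 ± 4.80, rho 0.145) and HSD17B10 (3.54 ± 2.95, rho -0.246), and the transcription factor TFAM (3.32 ± 2.94, rho -0.0379). Of 5 genes for mitochondrial ribosome assembly 0 passed in either direction, with a median of 0.135. The most abundant were RPUSD3 (2.70 ± 2.25 UMIs, rho -0.0666), MALSU1 (2.07 ± 2.08, rho 0.196) and ERAL1 (1.51 ± 1.65, rho 0.142), which acts on the small subunit. RNA28S5, the large rRNA of the cytosolic ribosome, had 32.3 ± 15.5 UMIs and a rho of -0.252.

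Of 40 nuclear genes of oxidative phosphorylation, 0 lay above 0.3 and 1 (ATP5D, -0.375) below, with a median of -0.0473 and a highest value of 0.269. The most abundant were COX7C (-0.216), ATP5E (-0.219), NDUFA1 (-0.109) and ATP5G2 (0.165). These shares of nuclear genes are close to those over all genes tested, so nothing particular to the lists is read from them. By the same measure 12 of 13 mitochondrial mRNAs and 4 of 4 other tRNAs with enough UMIs lay above. With spike-in scaling 1133 of 2804 genes (40.4%) lay above 0.3. By that scale 34 of 40 oxidative phosphorylation genes (85%), 34 of 76 mitochondrial ribosomal protein genes (44.7%) and 5 of 13 genes for mitochondrial transcription and RNA processing (38.5%) did so, so the low counts hold for shares and not for amounts per spike-in. The lists differ in abundance, with 58010 UMIs in 42 rows for oxidative phosphorylation and 22892 in 78 rows for the mitochondrial ribosomal proteins. The part of abundance in these percentages was not tested.

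Among rows not named as genes of the mitochondrial genome, those most like the summed members were XIST (rho 0.439), the poly(A)-binding protein gene PABPC1 (0.438), CTB-36O1.7 (0.436), hsa-mir-6723 (0.432), the Notch target HES1 (0.432), the splicing gene SON (0.432), the helicase gene HELLS (0.430) and SNHG15 (0.423). These fall into unlike patterns by member. XIST and HELLS were nearest to MT-RNR2 (0.541 and 0.512) and near 0 with MT-TP (0.0849 and 0.0942). CTB-36O1.7 was nearest to MT-TP (0.666) and to the summed mRNAs (0.862), with 0.186 for MT-RNR2. It was not found in the annotation used here, so its position, and whether it shares reads with mitochondrial genes, was not tested. By name hsa-mir-6723 is MIR6723 of GENCODE 29, which lies at chr1:632325-632413 on GRCh38 within MTCO1P12, a nuclear copy of MT-CO1, so its reads may be shared with the mitochondrial gene.

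The genes of lowest rho were ENO1 (-0.513) and GAPDH (-0.508) of glycolysis, the mitochondrial ADP/ATP carrier gene SLC25A6 (-0.500) and the ferritin gene FTH1 (-0.481). With spike-in scaling ENO1 (0.172), GAPDH (0.266) and FTH1 (0.222) turned positive and SLC25A6 was -0.0742. With cells thinned, 3 of these 12 genes kept their place among the 8 highest and 4 lowest. Singly, the nearest gene of any kind was MT-CO1 for MT-RNR1 (0.762), MT-RNR1 for MT-RNR2 (0.679), MT-TE for MT-TP (0.791), MT-TF for MT-TS2 and MT-TS2 for MT-TF (0.789). For the sparse MT-TV and MT-TL1 it was PET100 (0.415) and PSMG2 (0.511), at means of 0.842 and 1.09 UMIs of the tRNAs.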

How the data were processed

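The table holds whole-number UMI counts per gene and cell, deposited by the authors without normalization. The submitters' processing notes list cutadapt 1.2.1, STAR 2.4.0a and the build hg19 (GRCh37) without giving roles or an order. Not given in the sources used here were the counting tool, annotation, strand setting, treatment of reads that fit several places and cell filter. Per the labels' protocols, the tag is N(4)H(4), which allows 20736 sequences, while column names carry N6H4. Columns were matched to cells by run name and number. A row that repeats column numbers (0.197% of all values) was left out, and 80 spike-in rows were kept apart. A share is a gene's UMIs as percent of all endogenous UMIs in that cell. Gene totals per cell ranged from 7305 to 43392, which leaves genes of few UMIs governed by counting error. A count of 0 in 76 cells allows up to 3.95% of cells (3 counts). Excess CV is the square root of the variance beyond Poisson over the squared count expected from cell totals, with negative values set to 0. Its square was tested on simulated data, as was the Spearman rho. Computation used Python 3.11.15, numpy 2.4.6, pandas 2.3.3 and scipy 1.17.1. Members and lists were chosen with earlier results of these data known.

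Named genes are the 7 members, the 13 mRNAs, the 8 highest and 4 lowest genes not named as mitochondrial genes by rho with the summed members, the nearest gene of each member and the most abundant genes of each list. Nuclear copies, the single list gene past a limit and values for single cells were chosen after their values were seen. The alternatives were leaving out the 5 cells under 10483 UMIs, thinning to 10940 UMIs, spike-in scale, a denominator without mitochondrial genes, tag collisions, pooled shares, Pearson r of log2(share + 0.01), 2 extreme cells left out, minimum means of 0.5 and 3 UMIs and rho thresholds of 0.2 and 0.4.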

Additional observations from a re-analysis of the deposited data

How the results depend on the processing

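Of 416 values recomputed under the alternatives, 335 moved by less than 1 SD over cells, or for rho less than 1 standard error on the Fisher scale, or for counts by at most 1.5 times. Another 78 were counted as moved further and 3 as turned in sign. The mean summed share, the share of MT-RNR2 among the rRNAs and the number of members above the highest spike-in dispersion stayed within these limits under each alternative run. An SD over cells is a wide limit for a mean, and for MT-TS2, MT-TV and MT-TL1 it exceeds the mean share. Little is therefore read from levels within it. A rho within its limit could still cross 0.3. That of MT-RNR2 with the summed mRNAs was 0.313, and 0.244 with cells thinned. The 3 counted as turned in sign were the rhos of ENO1, FTH1 and GAPDH with spike-in scale. Sign changes of other values were counted only by the size of the move. With spike-in scale the median rho of the mitochondrial ribosomal proteins turned from negative to positive. The medians of the mitochondrial transcription and RNA processing genes and of the nuclear oxidative phosphorylation genes did so too. With spike-in scale the rho of the summed members with the summed mRNAs was 0.757. The number of genes at a rho of at least 0.3 or at most -0.3 was 1133 against 149. ENO1 (0.172), FTH1 (0.222) and GAPDH (0.266) turned sign. On that scale a cell's RNA content and its spike-in total both enter each measure. The part of either in these shifts was not tested. The median rho of the 21 member pairs was 0.319, and 0.153 with cells thinned, where MT-TV and MT-TL1 hold fewer UMIs still. The number of genes past the rho limit was 93 at a minimum mean of 3 UMIs, where fewer genes were tested, 526 at a limit of 0.2 and 47 at 0.4. Of the 12 genes named by likeness, 6 kept their place without the 5 shallow cells and 3 each with thinning and with spike-in scale, and the cause was not tested. No paired analysis was possible because all cells form 1 group. The values of MT-TV and MT-TL1 are limited by their few UMIs, and the cause of these low counts was not tested.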
